A study of Mus musculus with 12 samples.

Results

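The 7 genes described here belong to hepatic cholesterol synthesis and its feedback control: the enzymes Hmgcs1, Idi1, Fdps, Sqle and Cyp51, the feedback protein Insig1 and the transcription factor Srebf2. They were taken by gene name from the deposited tables, which list 25164 genes in all, and each of the 7 names was found in both tables. None of the 7 takes up lipoproteins, and uptake was followed through a separate list of 15 genes. Liver RNA was sequenced from mice on a normal diet (Control) or a high-fat diet (HFD) for 14 weeks, or on the same high-fat diet with fenofibrate given by gavage after week 10, for 4 weeks (HFD plus fenofibrate). The study assigned 10 mice to each group, and 4 libraries per group were analysed. Fenofibrate, a fibrate used to lower blood lipids, is converted in the body to a ligand of the nuclear receptor PPARA. The labels do not tie libraries to cages, collection times or runs, and the p-values therefore measure only the spread between these libraries, which may be partly technical.

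Cholesterol is built from acetyl-CoA through mevalonate, isoprenoid diphosphates, squalene and lanosterol. In the liver the genes of this route are switched on together by SREBP-2, the product of Srebf2, which stays in the endoplasmic reticulum when sterols are plentiful. INSIG proteins hold the SREBP escort protein SCAP there, and when sterols run low the complex travels to the Golgi, where proteases release the active factor. Released SREBP-2 binds sterol regulatory elements in promoters, usually beside sites for the general factors NF-Y and Sp1.

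Levels are given as CPM, which are reads of a gene relative to the TMM-scaled total of its library, and log2 fold changes are given with their SE. A gene is said to have risen or fallen where its p in the quasi-likelihood test of edgeR, adjusted by Benjamini-Hochberg over the 13477 genes tested, was under 0.05. Total counts ran from 15797016 to 18514481 per library. All 10 hepatocyte markers were detected in every group and summed to between 121400 and 146000 CPM of total counts per library, with every HFD library (123600 to 134300) below every Control library (135600 to 146000). The 6 B and plasma cell markers reached 28.2 to 46.1 CPM in HFD libraries, above the 13.3 to 26.3 CPM of Control and the 13.7 to 23.9 CPM of fenofibrate libraries. Single markers did not all follow these sums. With the diet, Cps1 (log2 change -1.10, adjusted p = 0.0001628) and Ass1 (-1.35, 1.751e-05) fell. No other hepatocyte marker passed, with changes from -0.79 (Tat) to 0.29 (Ttr). Ighm rose (1.51, adjusted p = 0.002006), while Cd79a, Cd79b, Ms4a1 and Jchain did not pass (-0.21 to 0.24). The part of these shifts in the diet changes was not tested. Fenofibrate library 1 held 2113 CPM over the 12 pancreatic acinar markers, where the other libraries had 6.24 to 31.1 CPM. Fenofibrate libraries 1 and 3 held 175 and 134 CPM over the 6 striated muscle markers, where the others had at most 1.03 CPM. Calls with fenofibrate are therefore also given without fenofibrate libraries 1 and 3, which leaves 2 libraries in that group. In whole liver, fewer cells of a type and less RNA per cell cannot be told apart.

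Promoter sequences of 4 members are shown first, because these genes share a factor that reads them. RefSeq windows on GRCm38.p6, 250 bases before to 50 bases after a gene's start, were given for 5 of the 7 genes. The stretch of Idi1 upstream of its starts holds no match to the capitalised motifs and is not printed. The sequences below are the parts upstream of every annotated start, written 5′ to 3′ on the gene's strand. Capitals mark matches on either strand to TCACNCCAC (like a sterol regulatory element), CCAAT (an NF-Y box, ATTGG on the other strand), GGGCGG (an Sp1 box, CCGCCC on the other strand) and CACGTG (an E-box). The shorter form CACNCCAC was searched too and is not capitalised.

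Hmgcs1, chr13:119690101-119690350, plus strand: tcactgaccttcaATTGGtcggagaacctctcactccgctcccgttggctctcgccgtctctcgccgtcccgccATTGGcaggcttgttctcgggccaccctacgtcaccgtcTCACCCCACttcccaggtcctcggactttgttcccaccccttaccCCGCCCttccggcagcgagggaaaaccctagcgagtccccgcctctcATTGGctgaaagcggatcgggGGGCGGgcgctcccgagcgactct
Srebf2, chr15:82147019-82147180, plus strand: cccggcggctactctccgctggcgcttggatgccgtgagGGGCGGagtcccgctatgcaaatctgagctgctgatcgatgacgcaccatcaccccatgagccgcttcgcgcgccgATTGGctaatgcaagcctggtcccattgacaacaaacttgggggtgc
Insig1, chr5:28071162-28071362, plus strand: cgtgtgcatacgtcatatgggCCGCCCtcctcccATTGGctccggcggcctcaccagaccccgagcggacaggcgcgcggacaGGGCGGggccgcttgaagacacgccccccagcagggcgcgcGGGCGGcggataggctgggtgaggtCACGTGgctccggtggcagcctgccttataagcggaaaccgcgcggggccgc
Cyp51, chr5:4104747-4104947, minus strand: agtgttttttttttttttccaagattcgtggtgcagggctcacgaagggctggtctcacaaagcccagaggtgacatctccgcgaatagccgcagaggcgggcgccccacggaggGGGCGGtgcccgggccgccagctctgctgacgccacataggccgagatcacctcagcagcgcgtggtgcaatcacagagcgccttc

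The form TCACNCCAC was found in the window of Hmgcs1 alone among the 5, as TCACCCCAC 137 bases before the start, and 1.2% of all 32851 windows hold it. The shorter form CACNCCAC, which lies within the longer one, was found in 2 of 5 windows, those of Hmgcs1 and Insig1 (in the latter after the printed stretch), against 6.2% of all windows. CCAAT was found in 5 of 5 windows (37.4% of all windows) and GGGCGG in 5 of 5 (35.7% of all windows). Some of these matches are not in the stretches printed. They lie after the RefSeq start, or between it and another annotated start further upstream. The E-box was found in the window of Insig1 alone, 101 bases before the start (7.2% of all windows). These are matches of letters and not measured sites.

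HFD was set against Control to ask what the diet did to these genes. Hmgcs1 rose, and none of the other 6 genes passed the test. The 1 of 7 that rose stands beside 6.13% of all genes tested, and the 0 of 7 that fell beside 6.64% (12.8% in either direction). The median log2 change of the 7 genes was -0.12, against -0.02 over all genes tested. Hmgcs1 was also the only one of the 7 to pass at an unadjusted p under 0.05, with DESeq2 or with limma-voom. The HFD and Control libraries overlapped in all 7 genes, while they did not overlap in 17.6% of all genes tested.

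HFD plus fenofibrate was set against HFD to ask what the drug did on that diet. Srebf2 and Fdps rose and Hmgcs1 fell. The 2 of 7 that rose stand beside 6.89% of all genes tested, and the 1 of 7 that fell beside 6.59% (13.5% in either direction). The median log2 change was 0.16, against 0.01 over all genes. In 2 of the 7 genes, Srebf2 and Fdps, the groups did not overlap, as in 20.7% of all genes tested.

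Fenofibrate on the high-fat diet was also set against Control. Here 0 of 7 genes passed in edgeR's test, where 4.86% of all genes tested rose and 4.31% fell (9.17% in either direction). The count was 2 at an unadjusted p under 0.05 (Cyp51 at 0.0255 and Fdps at 0.0493), and 0 with DESeq2 or limma-voom. Each pair of these comparisons shares the libraries of one group, so they are not independent of each other.

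**Figure D1:**
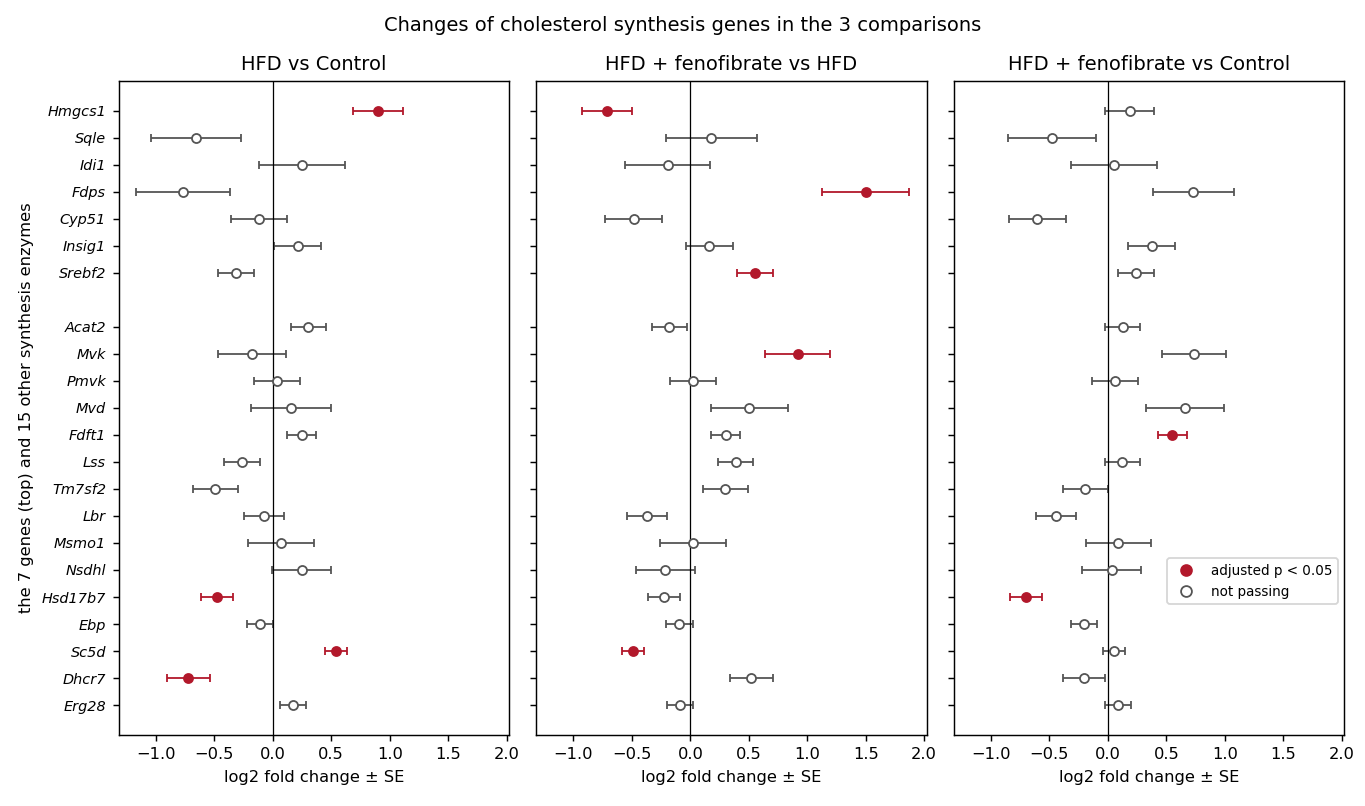
Log2 fold change with its SE (x axis) of the 7 genes (top) and 15 other cholesterol synthesis enzymes (y axis) in the 3 comparisons; filled points have an adjusted p under 0.05. The filled points lie on both sides of 0: Hmgcs1 rose by 0.90 with the high-fat diet and fell by 0.71 with fenofibrate, while Srebf2 rose by 0.55 with fenofibrate.

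Hmgcs1 (ENSMUSG00000093930, chromosome 13, 119690379 to 119708260, plus strand) encodes the cytosolic HMG-CoA synthase, which makes the precursor of mevalonate. It stood at 52.7, 61.8, 74.2 and 72.2 CPM in Control libraries 1 to 4, at 152, 102, 71.8 and 160.2 CPM in HFD libraries 1 to 4 and at 65.1, 73.55, 63.4 and 94.5 CPM in fenofibrate libraries 1 to 4. HFD libraries 1, 2 and 4 were above every Control library, while HFD library 3 lay within the Control range. The mean was 65.2 ± 9.97 CPM in Control, 122 ± 41.9 in HFD and 74.1 ± 14.3 with fenofibrate (SD, n = 4).

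With the high-fat diet Hmgcs1 rose 1.86-fold (log2 fold change 0.90 ± 0.21, adjusted p = 0.01166), and the call held when any of the 12 libraries was left out, with log2 changes from 0.74 to 1.08. With fenofibrate it fell by 0.71 ± 0.21 on the log2 scale (adjusted p = 0.03663), with 2 of 4 fenofibrate libraries below all HFD libraries. That call ended when HFD library 1 or 4 or fenofibrate library 1, 2 or 3 was left out (adjusted p from 0.05194 to 0.1205), and with limma-voom (0.05205). With fenofibrate libraries 1 and 3 both left out, the change was -0.53 with an adjusted p of 0.3496. Against Control, Hmgcs1 under fenofibrate differed by 0.18 ± 0.21 (adjusted p = 0.6302). The authors' deposited table gives Hmgcs1 a log2 change of 0.91 with the diet and an adjusted p of 0.000705, and marks it as not significant. An antisense gene overlaps the locus and had 0 to 1 counts per library.

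Idi1 (ENSMUSG00000058258, chromosome 13, 8885501 to 8892451, plus strand) encodes the isopentenyl diphosphate isomerase, which makes the allylic building block of isoprenoids. Its level was 8.06, 8.37, 10.8 and 9.08 CPM in Control, 10.2, 12.5, 3.25 and 17.1 CPM in HFD, and 7.02, 4.86, 11.8 and 13.8 CPM with fenofibrate, in libraries 1 to 4 of each group. The Control libraries lay close together, while HFD spanned a 5.26-fold range and fenofibrate a 2.83-fold range, and all groups overlapped. No change passed: 0.25 ± 0.37 for HFD against Control (adjusted p = 0.7225), -0.19 ± 0.37 for fenofibrate against HFD (0.7522) and 0.05 ± 0.37 for fenofibrate against Control (0.9535). Of the 50-base stretches of Idi1 transcripts, 30.5% also occur in other genes, mainly processed pseudogenes, so part of its count depends on how shared reads were assigned.

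Fdps (ENSMUSG00000059743, chromosome 3, 89093588 to 89101959, minus strand) encodes farnesyl diphosphate synthase, which stands at the branch to squalene, prenylated proteins, dolichol and ubiquinone. Its raw counts were 16, 9, 8 and 16 in Control, 6, 9, 6 and 7 in HFD and 19, 11, 31 and 37 with fenofibrate, in libraries 1 to 4. The mean level was 0.743 ± 0.240 CPM in Control, 0.434 ± 0.0693 in HFD and 1.23 ± 0.529 with fenofibrate (SD, n = 4). Every fenofibrate library was above every HFD library, and Control overlapped with both groups.

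Fdps rose 2.83-fold with fenofibrate against HFD (1.499 ± 0.37, adjusted p = 0.01816). Leaving out HFD library 1 or fenofibrate library 3 or 4 ended the call, with adjusted p between 0.05241 and 0.06352. Leaving out fenofibrate libraries 1 and 3 together also did (1.52, adjusted p = 0.1328), and a minimum mean of 1 CPM removed the gene. Against Control, the changes were -0.77 ± 0.40 in HFD (adjusted p = 0.236) and 0.73 ± 0.34 with fenofibrate (0.2012). Of the 7 genes, the authors' deposited table marks Fdps alone as significant, in the fenofibrate comparison (log2 change 1.504, adjusted p = 0.0156). For the same comparison it gives lower adjusted p to Srebf2 (0.55, 0.00453) and Hmgcs1 (-0.72, 0.00992), which it does not mark. Fdps has the largest deposited log2 change of the 7 genes.

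The counts of Fdps are uncertain. In GENCODE M21 another protein-coding gene, Gm43738, runs on the same strand from 89081939 to 89101099 on chromosome 3 and covers 89.7% of the Fdps locus. Gm43738 has no counts in the deposited data, and whether the authors' annotation held it is not stated. Of the 50-base stretches of Fdps transcripts, 86.4% also occur in GENCODE M21 transcripts of other genes, and 77.3% in those of Gm43738. The processed pseudogene Gm3571 (chromosome 10, 93778660 to 93779719), which carries part of that sequence, had 36 to 101 counts per library, more than Fdps itself in every library. Gm3571 changed by -0.21 ± 0.27 with fenofibrate against HFD (adjusted p = 0.6192) and by 0.24 ± 0.27 with the high-fat diet (0.6276). How the authors' counting treated shared reads is not stated in the labels or headers.

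Sqle (ENSMUSG00000022351, chromosome 15, 59315077 to 59331192, plus strand) encodes squalene epoxidase, which adds the oxygen that allows ring closure and is a slow step of the route. It stood at 16.5, 11.7, 21.2 and 13.8 CPM in Control, at 8.23, 12.4, 3.19 and 16.2 CPM in HFD and at 8.499, 6.36, 10.6 and 19.8 CPM with fenofibrate, in libraries 1 to 4. HFD libraries 1 and 3 and fenofibrate libraries 1, 2 and 3 were below every Control library, and the remaining libraries of both groups fell within the Control range. Neither the HFD difference of -0.66 ± 0.39 (adjusted p = 0.2991) nor the fenofibrate difference from Control of -0.48 ± 0.38 (0.468) passed. Fenofibrate against HFD gave 0.18 ± 0.39 (adjusted p = 0.788), and this turned to -0.11 without HFD library 3 and to -0.23 without fenofibrate library 4.

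Cyp51 (ENSMUSG00000001467, chromosome 5, 4081145 to 4104746, minus strand) encodes lanosterol 14-alpha-demethylase, which removes a methyl group from lanosterol. It stood at 40.95, 51.8, 57.4 and 44.9 CPM in Control, at 44.1, 48.4, 22.65 and 64.4 CPM in HFD and at 26.1, 25.7, 31.5 and 44.9 CPM with fenofibrate, in libraries 1 to 4. Fenofibrate libraries 1 to 3 were below every Control library, and HFD library 3 was lower than all of them. The change was -0.60 ± 0.24 for fenofibrate against Control (adjusted p = 0.1375) and -0.49 ± 0.24 against HFD (0.1892), and neither passed. Without HFD library 3 the second reached -0.70 with an adjusted p of 0.0307. HFD against Control gave -0.12 ± 0.24 (adjusted p = 0.8048), and 0.11 without HFD library 3. Akap9, on the opposite strand with 457 to 700 counts per library, overlaps 166 bases of the locus, and whether the counting used strand is not stated in the labels.

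**Figure D2:**
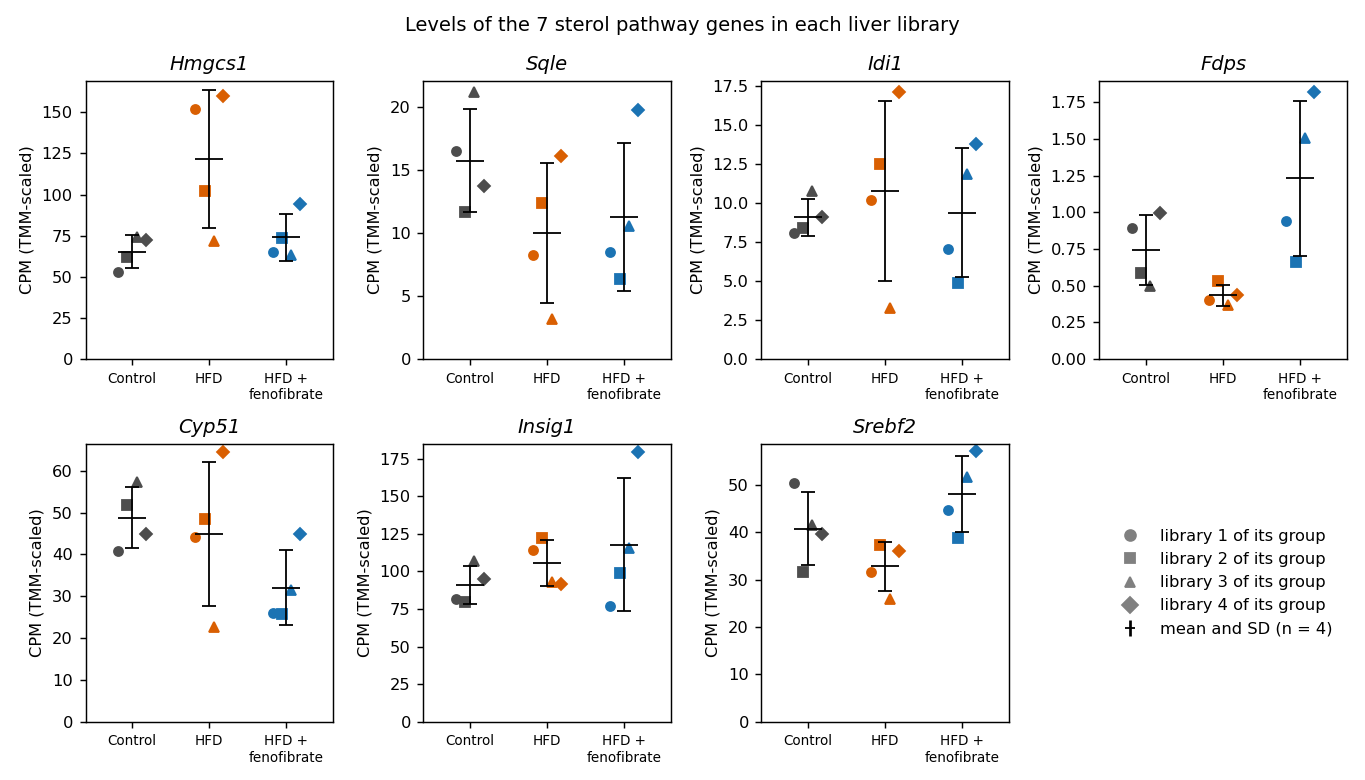
TMM-scaled CPM (y axis, from 0) of each of the 7 genes in the 12 libraries (points, shaped by library number) by group (x axis), with the mean and SD of 4 libraries. HFD library 3 (orange triangle) is the lowest HFD point in 6 of 7 panels, and fenofibrate library 4 (blue diamond) is the highest fenofibrate point in 7 of 7.

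Srebf2 (ENSMUSG00000022463, chromosome 15, 82147266 to 82205376, plus strand) encodes SREBP-2, the factor that drives the genes above and also its own promoter. It stood at 50.3, 31.6, 41.5 and 39.6 CPM in Control, at 31.65, 37.4, 26.0 and 36.1 CPM in HFD and at 44.8, 38.75, 51.7 and 57.1 CPM with fenofibrate, in libraries 1 to 4. Every fenofibrate library was above every HFD library, by a narrow margin between fenofibrate library 2 and HFD library 2, and Control overlapped with both groups. Srebf2 rose 1.47-fold with fenofibrate against HFD (0.55 ± 0.15, adjusted p = 0.02869). The call ended when HFD library 1 or 3, or fenofibrate library 1, 3 or 4, was left out, with adjusted p between 0.05012 and 0.09088. With fenofibrate libraries 1 and 3 both left out, the change was 0.55 with an adjusted p of 0.1974. HFD differed from Control by -0.31 ± 0.15 (adjusted p = 0.2025) and fenofibrate from Control by 0.24 ± 0.15 (0.3551).

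Insig1 (ENSMUSG00000045294, chromosome 5, 28071363 to 28078662, plus strand) encodes the retention protein that is itself a target of SREBP-2. It stood at 81.8, 79.8, 107 and 94.9 CPM in Control, at 115, 122, 93.0 and 91.7 CPM in HFD and at 77.1, 99.3, 115.5 and 179.7 CPM with fenofibrate, in libraries 1 to 4. Fenofibrate library 4 was the highest of all 12 libraries and fenofibrate library 1 the lowest. No change passed: 0.21 ± 0.20 for HFD against Control (adjusted p = 0.5442), 0.16 ± 0.20 for fenofibrate against HFD (0.615) and 0.37 ± 0.20 for fenofibrate against Control (0.265). The difference between fenofibrate and HFD turned to -0.11 without fenofibrate library 4.

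Its partner Insig2, the other INSIG gene of the liver, fell with the high-fat diet by 0.80 ± 0.23 on the log2 scale (adjusted p = 0.03008). With fenofibrate against Control Insig2 fell by 1.45 ± 0.23 (adjusted p = 0.001263), and with fenofibrate against HFD the change was -0.65 ± 0.23 (0.06665). The change against HFD passed with DESeq2 (adjusted p = 0.02787) and with no low-count filter (0.0282). It also passed without HFD library 3 (0.04399) or fenofibrate library 2 (0.01122), and in no other setting. The call against Control under fenofibrate held when any of the 12 libraries was left out, while that of the diet ended when any Control library or HFD library 2, 3 or 4 was left out (adjusted p from 0.0512 to 0.08527). The CPM ratio of Insig1 to Insig2 was 0.107, 0.102, 0.143 and 0.127 in Control, 0.187, 0.326, 0.288 and 0.208 in HFD and 0.276, 0.239, 0.441 and 1.10 with fenofibrate, in libraries 1 to 4. Each HFD and fenofibrate library thus had a higher ratio than any Control library. The summed CPM of both genes lay between 845 and 864 in Control, between 416 and 727 in HFD and between 344 and 514 with fenofibrate. These ratios and sums, and the next ratio, were computed after the values were seen and are given as descriptions, with no test; reads per gene also depend on length, so the ratio is not one of molecules.

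Hmgcs1 was also set against later enzymes of its own route. The ratio of its CPM to the geometric mean of Idi1, Sqle and Cyp51 was 2.996, 3.60, 3.15 and 4.07 in Control, 9.82, 5.23, 11.6 and 6.13 in HFD and 5.62, 7.95, 4.01 and 4.10 with fenofibrate, in libraries 1 to 4. Every HFD library was above every Control library, also HFD library 3, in which the level of Hmgcs1 itself was within the Control range. The fenofibrate libraries lay on both sides of the highest Control value.

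**Figure D3:**
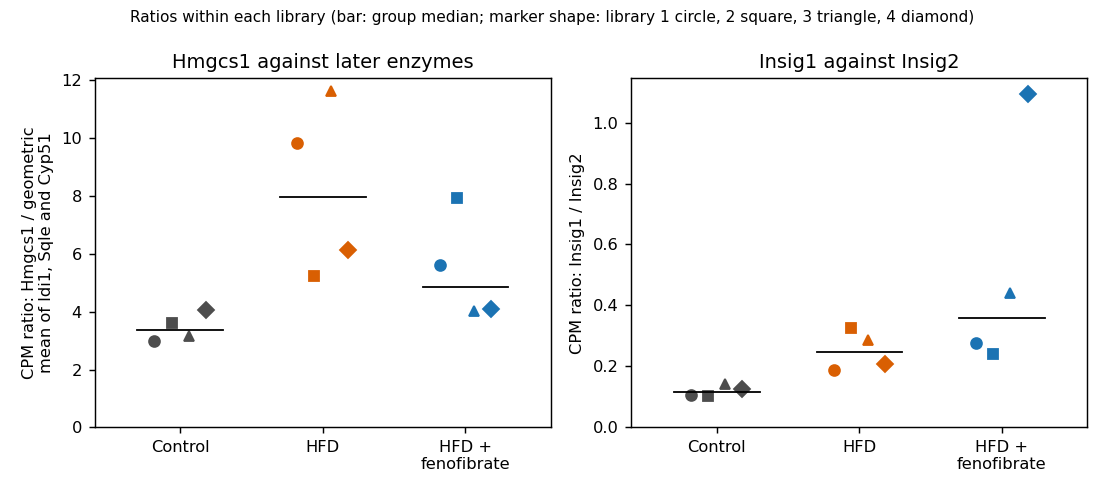
CPM ratio of Hmgcs1 to the geometric mean of Idi1, Sqle and Cyp51 (left y axis) and of Insig1 to Insig2 (right y axis) in each library (points) by group (x axis), with the group median as a bar. In both panels the 4 HFD libraries lie above the 4 Control libraries, and fenofibrate library 4 has the highest Insig1 to Insig2 ratio, 1.10.

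Per kilobase of the annotated transcript, Insig1 and Hmgcs1 were the most abundant of the 7 genes and Fdps the least. Mean levels in Control were 33.7 ± 4.72 CPM per kb for Insig1, 18.8 ± 2.88 for Hmgcs1 and 12.4 ± 1.85 for Cyp51 (SD, n = 4). Srebf2 followed at 8.03 ± 1.51, Sqle at 5.72 ± 1.49, Idi1 at 2.995 ± 0.399 and Fdps at 0.538 ± 0.174 CPM per kb. Fdps and Idi1 share 86.4% and 30.5% of their 50-base stretches with other genes. Their places in this order therefore depend on how shared reads were assigned. Of neighbours in this order, only Srebf2 and Sqle had ranges of mean ± SD that overlapped in Control. In HFD the level of Hmgcs1 was 35.1 ± 12.1 CPM per kb, near that of Insig1 at 39.1 ± 5.71.

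The 16 other enzymes of the route were also divided in their direction. With the high-fat diet 1 rose and 2 fell (median log2 change -0.02), with fenofibrate against HFD 2 rose and 1 fell (median 0.02), and with fenofibrate against Control 1 rose and 1 fell (median 0.07). Among all genes tested, 6.13% rose and 6.64% fell with the diet, and 6.89% and 6.59% with fenofibrate against HFD. With fenofibrate against Control the shares were 4.86% and 4.31%. Sc5d, the sterol C5-desaturase, rose with the high-fat diet (0.54 ± 0.10, adjusted p = 0.001709) and fell with fenofibrate by 0.49 ± 0.10 on the log2 scale (adjusted p = 0.005281), the same directions as Hmgcs1. Both calls for Sc5d held when any of the 12 libraries was left out.

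Mvk, the mevalonate kinase, rose with fenofibrate against HFD (0.92 ± 0.28, adjusted p = 0.04197), but this call was lost without any 1 of 8 libraries (adjusted p from 0.05205 to 0.1447). Those were all 4 HFD libraries, fenofibrate libraries 1, 3 and 4 and Control library 4. Dhcr7, the 7-dehydrocholesterol reductase, fell with the high-fat diet by 0.72 ± 0.18 on the log2 scale (adjusted p = 0.01777), which ended when Control library 3 or HFD library 1 was left out (0.05403 and 0.05181). Hsd17b7, a sterol ketoreductase, fell with the high-fat diet by 0.48 ± 0.14 (adjusted p = 0.03394), which ended when Control library 1 or 2 or HFD library 2 or 3 was left out (0.07438 to 0.09616). Under fenofibrate against Control Hsd17b7 fell by 0.70 ± 0.14 (adjusted p = 0.005656) and Fdft1, the squalene synthase, rose (0.55 ± 0.12, adjusted p = 0.01209), and both calls held with any 1 library left out. Fdft1 also passed without fenofibrate libraries 1 and 3 (0.69, adjusted p = 0.02248). Without fenofibrate libraries 1 and 3, the calls for Sc5d against HFD and for Hsd17b7 against Control were lost (adjusted p = 0.1192 and 0.06624), with changes of -0.44 and -0.69. The rise of Mvk was lost as well (0.73, adjusted p = 0.3252).

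Of 13 genes that control SREBP processing or act with it, 2 rose and 1 fell with the high-fat diet, 1 rose with fenofibrate against HFD, and 2 rose and 1 fell with fenofibrate against Control. Among all genes tested, 6.13% rose and 6.64% fell with the diet, and 6.89% rose with fenofibrate against HFD. With fenofibrate against Control 4.86% rose and 4.31% fell. Besides Insig2, Srebf1, which encodes the fatty acid counterpart SREBP-1, rose with the diet (0.86 ± 0.26, adjusted p = 0.04315) and with fenofibrate against Control (1.31 ± 0.27, adjusted p = 0.006338). The diet call for Srebf1 ended on leaving out any of 7 single libraries, namely 3 of Control (2, 3 and 4), 2 of HFD (2 and 3) and 2 of fenofibrate (3 and 4) (adjusted p from 0.05128 to 0.1411). It was also lost with DESeq2, at a mean of at least 1 CPM and with only the 8 libraries compared. Nfyb, a subunit of the NF-Y factor, rose with the diet (0.55 ± 0.10, adjusted p = 0.001906) and with fenofibrate against Control (0.36 ± 0.10, 0.03254). The other NF-Y subunits, Nfya and Nfyc, did not pass with the diet (0.04 and -0.19, adjusted p = 0.9221 and 0.3214). They also did not pass with fenofibrate against Control (0.23 and -0.16, adjusted p = 0.5199 and 0.42). The call under fenofibrate ended for Nfyb when Control library 2 or 4, or fenofibrate library 1, 3 or 4, was left out, with adjusted p between 0.05737 and 0.09733. Sirt6, a deacetylase, rose with fenofibrate against HFD (0.62 ± 0.17, adjusted p = 0.02784), a call that ended when HFD library 1 or 2 or fenofibrate library 1 or 3 was left out (0.05426 to 0.09237). The SREBP escort Scap and the proteases Mbtps1 and Mbtps2 passed in none of the 3 comparisons, and their log2 changes lay between -0.30 and 0.31. Without fenofibrate libraries 1 and 3, Insig2 kept its fall against Control (-1.38, adjusted p = 0.02788), while Srebf1 against Control (1.20, adjusted p = 0.06465), Nfyb against Control (0.36, 0.1871) and Sirt6 against HFD (0.56, 0.2412) did not pass.

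In the list of 15 genes of lipoprotein uptake and sterol trafficking, 1 rose and 1 fell with the high-fat diet, 3 rose and 1 fell with fenofibrate against HFD, and 2 rose and 1 fell with fenofibrate against Control. The shares of all genes tested that rose and fell were 6.13% and 6.64% with the diet. They were 6.89% and 6.59% with fenofibrate against HFD, and 4.86% and 4.31% with fenofibrate against Control. Vldlr, the very-low-density lipoprotein receptor, rose with fenofibrate against HFD (2.23 ± 0.32, adjusted p = 0.001119), from 2.27 ± 1.33 to 10.6 ± 2.43 CPM, and against Control (3.03 ± 0.35, 0.0001296). Both calls for Vldlr held with any 1 library left out and without fenofibrate libraries 1 and 3 (2.02 and 2.83, adjusted p = 0.02995 and 0.003204). The other calls against HFD were weaker: the HDL receptor Scarb1 (0.49, adjusted p = 0.04559) and the sterol exporter of lysosomes Npc1 (0.39, 0.02789) rose, and the lysosomal lipase Lipa fell (-0.36, 0.04539). Leaving out 1 library ended the call of Scarb1 in 7 of 12 cases, of Npc1 in 4 and of Lipa in 9 (adjusted p from 0.05014 to 0.1361), and all 3 were lost without fenofibrate libraries 1 and 3 (0.37, 0.38 and -0.35, adjusted p = 0.3708, 0.2003 and 0.2676). Soat2, which esterifies cholesterol in hepatocytes, rose with the diet (0.43 ± 0.10, adjusted p = 0.01091) and with fenofibrate against Control (0.71 ± 0.10, 0.0006373), also without fenofibrate libraries 1 and 3 (0.72, 0.009666). Tmem97, a sterol-regulated membrane protein, fell with the diet by 0.46 ± 0.12 on the log2 scale (adjusted p = 0.02073), a call that ended when Control library 3 or HFD library 2 or 3 was left out (0.05269 to 0.05902). Its fall with fenofibrate against Control (-0.42, adjusted p = 0.03896) ended in 7 of 12 cases with 1 library left out (0.0514 to 0.1275) and without fenofibrate libraries 1 and 3 (-0.31, 0.3693). Of 13 genes that use other mevalonate products, 1 fell with fenofibrate against HFD (Rabggtb) and 1 rose with fenofibrate against Control (Rabggta), both subunits of the enzyme that prenylates Rab proteins. The fall of Rabggtb (-0.62, adjusted p = 0.03623) ended when HFD library 1 or 4 or fenofibrate library 1 or 3 was left out (0.08608 to 0.1147), and without both of the latter it was -0.39 (0.3594). The rise of Rabggta (0.40, adjusted p = 0.01728) ended when Control library 2 or fenofibrate library 4 was left out (0.05744 and 0.05842), and without fenofibrate libraries 1 and 3 it was 0.49 (0.05005).

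Of 12 fatty acid synthesis genes that SREBP-1 also drives, 6 rose with the high-fat diet, where 6.13% of all genes tested rose. Among the 6 were Scd1, Me1 and Elovl6. The median log2 change of the 12 genes was 0.53, against -0.12 for the 7 genes. With fenofibrate against HFD 2 of the 12 fell (median -0.28), where 6.59% of all genes tested fell. These were the elongase Elovl6 (-0.55, adjusted p = 0.02383) and malic enzyme Me1 (-0.70, 0.04556). Their calls ended in 4 and 7 of 12 cases with 1 library left out (adjusted p between 0.05084 and 0.1427). Neither passed once fenofibrate libraries 1 and 3 were left out (-0.71 and -0.49, adjusted p = 0.08363 and 0.3684). Against Control 2 of the 12 rose (median 0.39), where 4.86% of all genes tested rose. These were the fatty acid synthase Fasn (0.90, adjusted p = 0.01569) and the desaturase Scd1 (0.93, 0.0452). The call of Fasn ended without fenofibrate library 3 or 4 (0.0505 to 0.05383) and without libraries 1 and 3 together (0.77, 0.1601). That of Scd1 ended in 9 of 12 cases with 1 library left out (0.0511 to 0.1313) but passed without fenofibrate libraries 1 and 3 (1.29, 0.0085). The difference between the lists was not tested.

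Most of the 7 genes tended to vary together between libraries of one group. HFD library 3 was the lowest HFD library for 6 of the 7 genes, all but Insig1, and for 13 of the 16 other enzymes, where 26.6% of all 13468 genes compared had their lowest HFD value there. For Fdps this rank rests on scaling, as HFD libraries 1 and 3 both had 6 counts. Insig1 was lowest in HFD library 4, the highest HFD library for Hmgcs1, Sqle, Idi1 and Cyp51. Fenofibrate library 4 was the highest of its group for 7 of the 7 genes and 12 of the 16 other enzymes, against 25.1% of all genes. In Control, library 3 was the highest for 5 of the 7 genes, against 22.8% of all genes, and fenofibrate library 2 was the lowest of its group for 5 of 7, against 31.1%. Of the 12 fatty acid genes, 9 were lowest in HFD library 3 and 8 highest in fenofibrate library 4.

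**Figure D4:**
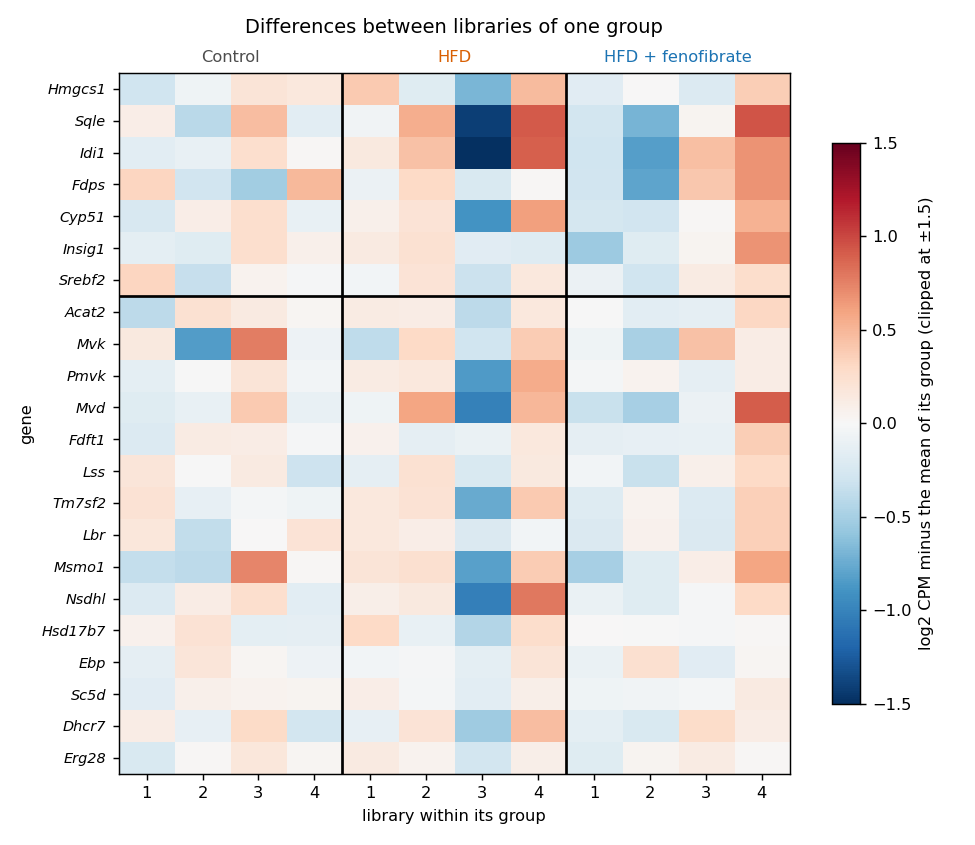
Log2 CPM minus the mean of its group (colour, limited to 1.5 in either direction) of the 7 genes (top) and 15 other enzymes (y axis) in the 12 libraries (x axis). HFD library 3 is blue in most rows and fenofibrate library 4 red, and the strongest blue cells are Sqle and Idi1 in HFD library 3.

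The size of this spread differed between the genes. The SD of log2 CPM within groups was 0.74 for Sqle and 0.72 for Idi1, larger than in 99.1% and 99.0% of genes within 2-fold of their mean CPM. Cyp51 had 0.44 (97.9%), Hmgcs1 0.37 (95.5%), Insig1 0.34 (93.4%) and Srebf2 0.25 (87.7%), and the median over all genes was 0.22. Fdps had 0.43, larger than in 37.5% of genes of its low level. After group means were removed, the correlation of each gene with the mean of the other 6 over the 12 libraries, which share their depth and scaling, was 0.93 for Sqle, 0.91 for Idi1, 0.85 for Cyp51 and 0.73 for Srebf2. It was 0.61 for Hmgcs1, 0.60 for Insig1 and 0.53 for Fdps. Among the other enzymes, Mvd, the mevalonate diphosphate decarboxylase, had the highest value (0.94) and Ebp, a sterol isomerase, the lowest (0.10).

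Genes outside the lists that followed the mean profile of the 7 genes most closely, after group means were removed, included Lipg, an endothelial-type lipase (r = 0.87), Kctd2 (0.85), Klhl25 (0.84), Bcl10 (0.83) and Tmem55b (0.83), out of 7204 genes at a mean of at least 10 CPM. These are descriptions over 12 libraries.

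Other measures differed between the same libraries. Total counts were lowest in HFD library 3 (15797016) and highest in fenofibrate library 4 (18514481). A score of 8 clock genes, the mean standardized log2 level of Nr1d1, Nr1d2, Dbp and Tef minus that of Arntl, Npas2, Clock and Cry1, was 1.58 in HFD library 3, against -0.75, 1.43 and 0.43 in HFD libraries 1, 2 and 4. In fenofibrate library 4 it was 2.40, against 1.42, 0.62 and 1.74 in fenofibrate libraries 1, 2 and 3. The highest score thus fell in the library with the lowest levels in HFD and in the library with the highest levels under fenofibrate. In Control it fell in library 3 (-1.92), which was the highest Control library for 5 of the 7 genes. Across groups the score ran from -2.48 to -1.92 in Control, apart from every HFD and fenofibrate library. The part of depth and of clock phase in the results above was not tested.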

How the data were processed

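Raw counts per Ensembl gene for 8 libraries stood in each of 2 tables, per the file headers, and the HFD counts were the same in both. The tools were HISAT2 2.0.5, HTSeq 0.6.0 and StringTie 1.3.2d, per the submitters' processing notes; for the strand setting and the annotation release, nothing is stated there. Each table also holds the authors' log2 fold change, their linear fold change (a ratio), p-value and adjusted p-value per gene, per the file headers, with no test named. The notes list builds mm8 and mm9, but 92.49% of the identifiers also in GENCODE M21 have the same GRCm38 position there.

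The tables were joined by identifier, with 0 counts for a gene missing from one. Of 25164 genes, 13477 passed filterByExpr. edgeR 4.0.16 in R 4.3.3 fitted a quasi-likelihood model to all 12 libraries, with TMM scaling, 1 coefficient per group and a prior count of 0.125, and the adjusted p threshold was 0.05. The SE is the size of the log2 change over the root of F. The steps were tested on simulated data with planted changes. Of planted 1.5-fold changes 34.3% to 46.3% passed in the 3 comparisons, so most were missed. Of planted 2-fold changes 70.1% to 80.6% passed. False calls made up 3.4% to 6.8% of the calls. Marker sums are CPM of total counts without TMM scaling. Libraries of the same group differed beyond counting error (chi-square per gene 15.1 to 42.2). Same-numbered libraries were not taken as pairs (r from -0.175 to 0.139 after group means were removed). Alternatives were DESeq2 1.42.0, limma-voom of limma 3.58.1, other scaling and filters, only the 8 libraries compared, a replicate block, a threshold of 0.01, each library left out in turn, and fenofibrate libraries 1 and 3 left out together.

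The members, lists, tests and naming rule were chosen with earlier results of these data known. All members were named, with every passing gene of the other enzymes, genes of the SREBP control list, up to 4 passing genes of each further list, and the genes most like the members, of which some are not reported here. Promoters of 2 members had no entry in the RefSeq table used.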

Additional observations from a re-analysis of the deposited data

How the results depend on the processing

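Of the counts of the 7 genes, the rise with the high-fat diet was 1 with any 1 library left out and 0 at an adjusted p under 0.01. With fenofibrate against HFD, the 2 rises became 1 at a mean of at least 1 CPM, 0 at 0.01 and 0 without fenofibrate libraries 1 and 3, and 0 to 2 with 1 library left out. The 1 fall became 0 with limma-voom, 0 at 0.01 and 0 without fenofibrate libraries 1 and 3, and 0 to 2 with 1 library left out, where the second was Cyp51. Of the 16 other enzymes, the 2 falls with the diet became 1 with only the 8 libraries compared, 1 without fenofibrate libraries 1 and 3, 0 at 0.01 and 1 to 2 with 1 library left out. Their 2 rises with fenofibrate against HFD became 1 at 0.01, 0 without fenofibrate libraries 1 and 3 and 1 to 4 with 1 library left out, and their 1 fall became 0 without fenofibrate libraries 1 and 3. Against Control, their 1 rise became 2 with DESeq2, 2 with no filter, 0 at 0.01 and 1 to 2 with 1 library left out, and their 1 fall became 0 without fenofibrate libraries 1 and 3. The causes of these differences between settings were not tested. With the replicate number as a block, the 2 rises of other enzymes with fenofibrate became 1, and Hmgcs1 kept its rise with the diet (0.85, adjusted p = 0.01478). In the further lists, the fall of Lipa against HFD was lost with that block. With no low-count filter, Nfyb against Control under fenofibrate and Sirt6 and Lipa against HFD were lost. With only the 8 libraries compared, Nfyb against Control under fenofibrate and Me1 against HFD were lost. With limma-voom and at a mean of at least 1 CPM, Me1 against HFD and Scd1 against Control under fenofibrate were lost.

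Signs turned only in members whose change had not passed. For HFD against Control, Idi1 ran from -0.0686 (without HFD library 4) to 0.55 with 1 library left out, and Cyp51 from -0.34 to 0.11 (without HFD library 3). For fenofibrate against HFD, Sqle ran from -0.23 (without fenofibrate library 4; -0.11 without HFD library 3) to 0.51, Idi1 from -0.49 to 0.12 (without HFD library 4; 0.01 without fenofibrate library 2) and Insig1 from -0.11 (without fenofibrate library 4) to 0.33. For fenofibrate against Control, Idi1 ran from -0.18 (without fenofibrate library 4; -0.06 without fenofibrate library 3) to 0.26, and was -0.0321 with limma-voom and -0.0054 with the replicate block.

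Over all genes, leaving out fenofibrate libraries 1 and 3 left 55 rises and 69 falls with fenofibrate against HFD, and 215 and 158 against Control. At 0.01 the rises and falls were 343 and 360 with the diet, 200 and 262 with fenofibrate against HFD, and 235 and 219 against Control. With 1 library left out the smallest counts were 550 and 554 with the diet (without HFD library 4 and Control library 1), 282 and 328 with fenofibrate against HFD (both without fenofibrate library 3), and 383 and 310 against Control (without Control library 2 and fenofibrate library 3). At 6 to 37 counts per library, the counting error of Fdps is large.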
